A study of Mus musculus with 6 samples.

Results

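The 10 genes described here are 8 Wnt ligands (Wnt3, Wnt4, Wnt5a, Wnt7b, Wnt10a, Wnt10b, Wnt11 and Wnt16) and 2 genes of the response to them (Lef1 and Axin2), picked by name from a table of 17564 genes measured in mouse skin. All 10 had a row, and all 10 passed the filter on low values. They were followed in whole back skin of wild-type C57BL/6 mice aged 8 weeks, 3 samples in each of 2 groups. The treated group was shaved and depilated and then had SspA (3 µg), a serine protease of the bacterium Staphylococcus aureus also known as V8 protease, put on the skin surface together with house dust mite extract (HDM, 10 µg). The application was repeated after 3 days, and skin was taken 7 days after the first one. The untreated group was shaved and depilated only, so hair removal is common to both groups, and the labels give no collection day for it. Bulk RNA from whole skin holds every cell type of the tissue. Below, T1 to T3 stand for treated replicates 1 to 3 and U1 to U3 for untreated replicates 1 to 3.

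Wnt proteins are secreted signals that carry a lipid added by the acyltransferase Porcn and are brought to the cell surface by Wls. In the canonical branch they bind Frizzled receptors with Lrp5 or Lrp6, which spares beta-catenin from the destruction complex so that it can act on DNA with factors of the Lef and Tcf family. Axin2 is a scaffold of that complex and is itself induced by the pathway, so its transcript is widely read as a sign of canonical signalling. In mouse skin this pathway is needed to form hair follicles and to start their growth phase, and Lef1 is abundant in the matrix and the hair shaft precursors of growing follicles. Other ligands, Wnt5a among them, act mainly through Ror2 and other beta-catenin-independent routes.

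Reads behind the deposited values ranged from 5606959 (T1) to 7545567 (T3) in treated and from 4928245 (U2) to 5770072 (U1) in untreated libraries. Values are given as scaled reads, that is reads per gene brought by the authors to nearly the same total in each library. A gene was called at a Benjamini-Hochberg adjusted p under 0.05 in limma over all 15534 genes tested, on log2(scaled reads + 1). By that rule 9.26% of all tested genes were higher and 7.23% were lower in treated skin, and the median log2 fold change of all tested genes was 0.03. It is not stated that the replicates are different mice, so a p-value here reflects only how far these samples vary, and that variation could be technical. Among treated libraries T3 stood apart, with the most reads, the highest sum of hair genes and the lowest sum of neutrophil markers (values below). Defining markers of the tissue were present in every library: basal epidermis (6 markers) summed to 9222 to 11943 scaled reads in treated and 11238 to 11920 in untreated skin, and fibroblast markers (7) to 14479 to 18287 and 13076 to 15568. Some of them came near the highest reads per base of any gene, 0.923: Krt14 reached 0.907, Krt5 0.833 and Col3a1 0.754. Others stayed lower, such as Itgb4 at 0.284. Among markers summed below, Krt1 (0.901), Ckm (0.91) and Tnnt3 (0.923) were at or near it. If each base of a transcript is counted once, such values level off, and the sums then show presence rather than amount.

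Of the 10 genes, 2 were lower in treated skin, Wnt3 and Wnt7b, and none was called higher. At an unadjusted p under 0.05 in limma the counts were 5 higher (Wnt4, Wnt5a, Wnt10b, Wnt16 and Lef1) and 3 lower (Wnt3, Wnt7b and Wnt10a), where 18.2% of all tested genes were higher and 13.2% lower. DESeq2 on the recovered reads called 3 higher (Wnt5a, Wnt10b and Lef1) and 2 lower, while edgeR's quasi-likelihood test and limma-voom called none higher and 2 lower. Over all 15534 tested genes DESeq2 called 1247 higher and 1336 lower, edgeR 1249 and 1204, and limma-voom 1061 and 1127. Treated and untreated values did not overlap for 7 of the 10 genes, where 37.3% of all tested genes showed no overlap in either direction (21.7% higher and 15.6% lower). The median log2 fold change of the 10 genes was 0.08, with 5 positive and 5 negative values. In whole tissue, fewer cells of a type and less RNA per cell cannot be told apart.

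**Figure D1:**
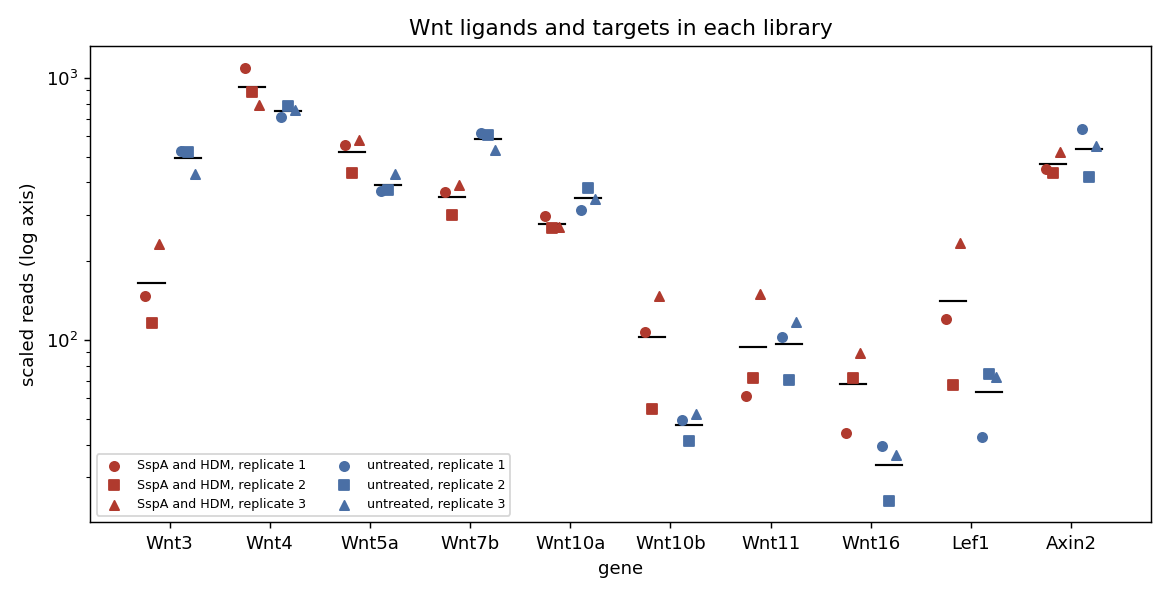
Scaled reads (log axis) of each of the 10 genes in each library, with treated libraries left of untreated ones, marker shapes for replicates 1 to 3 and a black bar at the group mean. Wnt3 and Wnt7b sit lower in all 3 treated libraries, while Lef1 and Wnt10b are spread most widely among the treated ones.

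Wnt3 lies on mm10 chromosome 11, 103774175 to 103818021, plus strand, Wnt7b on chromosome 15, 85535437 to 85581821, minus strand, Wnt10b on chromosome 15, 98771752 to 98778150, minus strand, and Lef1 on chromosome 3, 131110297 to 131224357, plus strand. The other 6 are Wnt4 (chromosome 4, 137277635 to 137299501, plus strand), Wnt5a (chromosome 14, 28505473 to 28527447, plus strand), Wnt10a (chromosome 1, 74792019 to 74804175, plus strand), Wnt11 (chromosome 7, 98835112 to 98854747, plus strand), Wnt16 (chromosome 6, 22288227 to 22298522, plus strand) and Axin2 (chromosome 11, 108920349 to 108950781, plus strand). Antisense genes of the GENCODE M21 annotation overlap Wnt5a, Wnt7b, Lef1 and Axin2, a processed pseudogene on the opposite strand (Gm8398) overlaps Wnt11, and an unclassified gene on the same strand (Gm42449) overlaps Lef1. The library kit keeps strand, per the labels, but whether the counting used it is not given in the sources used here. Reads of these 5 genes and of the genes that overlap them may therefore be mixed.

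The sequences around the transcript starts are shown for the called ligand gene Wnt3, for Wnt10b and Lef1, whose mean levels in treated skin exceeded those in untreated skin by the widest ratios of the 10, and for Wnt11, the 1 gene whose window holds either of the 2 longer forms searched for. RefSeq promoter windows (GRCm38.p6, 250 bases before to 50 bases after the start) were matched for 7 of the 10 genes, in 11 windows, some of which overlap, and those of Wnt5a, Wnt7b and Wnt10a were not used here. Capitals mark CTTTG on either strand, the core of the sequence that Lef and Tcf factors bind, and in Wnt11 the longer match that contains it. The windows are chr11:103773925-103774224 (plus strand), chr15:98778101-98778400 (minus strand), chr3:131110047-131110346 (plus strand, the first of 4 Lef1 windows) and chr7:98834862-98835161 (plus strand, the first of 2 Wnt11 windows). The last 30 bases of each window were looked up in the GENCODE M21 transcripts of its gene. They were found for every window except the 4 of Lef1, whose GENCODE gene starts at 131110471, downstream of the RefSeq start of the window printed, and the Lef1 windows rest on RefSeq alone.
Wnt3: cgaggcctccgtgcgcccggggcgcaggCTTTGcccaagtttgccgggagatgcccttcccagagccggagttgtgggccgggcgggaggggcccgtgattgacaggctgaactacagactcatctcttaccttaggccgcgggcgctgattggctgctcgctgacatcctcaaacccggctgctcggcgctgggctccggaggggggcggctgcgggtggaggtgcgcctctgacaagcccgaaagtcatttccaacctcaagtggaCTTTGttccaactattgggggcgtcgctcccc
Wnt10b: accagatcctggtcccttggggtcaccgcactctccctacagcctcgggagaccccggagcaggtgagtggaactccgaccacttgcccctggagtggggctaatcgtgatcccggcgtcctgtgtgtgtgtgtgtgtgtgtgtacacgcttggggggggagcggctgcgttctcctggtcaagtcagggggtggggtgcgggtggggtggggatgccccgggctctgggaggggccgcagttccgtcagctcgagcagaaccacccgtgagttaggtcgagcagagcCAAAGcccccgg
Lef1: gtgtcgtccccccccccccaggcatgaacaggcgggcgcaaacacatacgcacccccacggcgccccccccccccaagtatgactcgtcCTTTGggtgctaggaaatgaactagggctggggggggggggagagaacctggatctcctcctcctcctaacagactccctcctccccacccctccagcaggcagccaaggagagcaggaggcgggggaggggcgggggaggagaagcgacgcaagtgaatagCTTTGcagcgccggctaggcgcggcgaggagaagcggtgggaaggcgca
Wnt11: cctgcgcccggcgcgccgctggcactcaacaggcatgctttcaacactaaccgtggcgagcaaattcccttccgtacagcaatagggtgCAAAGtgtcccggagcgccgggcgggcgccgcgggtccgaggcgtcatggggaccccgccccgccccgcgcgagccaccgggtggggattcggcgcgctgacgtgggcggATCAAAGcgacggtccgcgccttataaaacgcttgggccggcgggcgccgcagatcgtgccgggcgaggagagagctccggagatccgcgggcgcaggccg

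The longer forms searched for, CTTTGAA or CTTTGAT on either strand, stood in 1 of 11 windows of the 10 genes, against 8.65% of all 32851 windows in the table. Other endings of the core, such as the CTTTGTT in the Wnt3 window, were not searched for. The 1 match is the CTTTGAT of Wnt11, on the strand opposite to the gene, beginning at position -51 counted from the transcript start. The 5-letter core CTTTG, which is part of both longer forms, stood in 7 of 11 windows, 4 of them of Lef1, against 53.9% of all windows. The window of Axin2 held neither. Such a match describes letters in these windows only.

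Among the ligands, Wnt3 showed the widest fall. Wnt3, which is made in the epithelium of the hair follicle in mouse, had 148, 117 and 234 scaled reads in T1, T2 and T3, against 529.6, 521 and 433 in U1, U2 and U3. Every treated library lay below every untreated one, and T3 was the highest of the treated libraries. Wnt3 averaged 166 ± 60.6 in treated and 495 ± 53.5 in untreated skin (SD, n = 3 each), a log2 fold change of -1.62 ± 0.22 SE, limma adjusted p = 0.00414 (95% interval -2.13 to -1.12). It was called lower under each of the 19 alternatives to the main test, with adjusted p from 2.85e-11 to 0.0222, and its log2 fold change ranged from -1.90 to -1.40 when single libraries were left out. The authors' deposited table gives Wnt3 a log2 fold change of -1.61, with an adjusted p of 1.28e-11.

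Wnt7b, an epithelial ligand that stimulates follicle growth in mouse, had 366, 301 and 392 scaled reads in T1, T2 and T3, against 618, 606 and 533 in U1, U2 and U3. The groups were apart, with less spread among treated libraries than for Wnt3. Wnt7b averaged 353 ± 47.3 in treated and 585 ± 45.9 in untreated skin (SD, n = 3 each), a log2 fold change of -0.73 ± 0.12 SE, limma adjusted p = 0.00584 (95% interval -1.0 to -0.47), and was called lower under each of the 19 alternatives, with adjusted p from 3.7e-06 to 0.0291. Wnt10a, whose loss in humans causes defects of teeth, hair and sweat glands, had 297, 268 and 271 scaled reads in T1, T2 and T3, against 315, 382 and 347 in U1, U2 and U3. All 3 treated values lay below the untreated ones, but the log2 fold change of -0.32 ± 0.11 SE, limma adjusted p = 0.0727, missed the threshold. It was called with TMM scaling (adjusted p = 0.0491) and with size factors from DESeq2 (adjusted p = 0.0485), in a range of 0.0485 to 0.227 over the alternatives.

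Wnt10b, a ligand that can induce hair growth in mouse skin and is the closest relative of Wnt10a, had 107, 54.5 and 148 scaled reads in T1, T2 and T3, against 49.5, 41.2 and 52.3 in U1, U2 and U3. T2 stood just above the highest untreated library, and T3 and T1 well above it. Wnt10b averaged 103 ± 46.9 in treated and 47.6 ± 5.77 in untreated skin (SD, n = 3 each), a log2 fold change of 0.99 ± 0.33 SE, limma adjusted p = 0.0736 (95% interval 0.24 to 1.75), which missed the threshold. Without T2 it was called higher (adjusted p = 0.0188), as it was with DESeq2 (adjusted p = 0.0218), in a range of 0.0188 to 0.271 over the alternatives, and the authors' deposited table gives it an adjusted p of 0.0212. Without T3 its log2 fold change was 0.68 (limma adjusted p = 0.172). Per kilobase of transcript, the ratio of Wnt10b to Wnt10a was 0.318, 0.179 and 0.481 in T1, T2 and T3, against 0.138, 0.0949 and 0.133 in U1, U2 and U3. The ratio of each treated library was above that of each untreated library.

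Wnt4, a ligand needed for kidney and female reproductive development and made in the epidermis, had 1098, 885 and 791 scaled reads in T1, T2 and T3, against 713, 781 and 756 in U1, U2 and U3. T1 was the highest, and T3 lay just above the highest untreated library. Its log2 fold change of 0.29 ± 0.12 SE, limma adjusted p = 0.123 (95% interval 0.03 to 0.55), missed the threshold over the 6 libraries, and it was called without T3 (adjusted p = 0.0314, range 0.0274 to 0.289). Wnt5a, which is made mainly by mesenchymal cells, had 554, 437 and 582 scaled reads in T1, T2 and T3, against 370.3, 373 and 432 in U1, U2 and U3. T2 was barely above U3, and the log2 fold change of 0.41 ± 0.12 SE, limma adjusted p = 0.051 (95% interval 0.13 to 0.69), missed the threshold, while leaving out T2 gave an adjusted p of 0.0317 and DESeq2 one of 0.0499 (range 0.0317 to 0.173). The adjusted p in the authors' deposited table is 0.0549 for Wnt5a, 0.0551 for Wnt16, 0.0869 for Wnt10a and 0.211 for Wnt4, none of them past the threshold.

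Wnt16, a ligand best known for its part in cortical bone, had 44.1, 71.9 and 89.1 scaled reads in T1, T2 and T3, against 39.6, 24.4 and 36.4 in U1, U2 and U3. Its lowest treated library, T1, was close to the highest untreated one, U1. Wnt16 averaged 68.3 ± 22.7 in treated and 33.5 ± 7.97 in untreated skin (SD, n = 3 each), a log2 fold change of 0.98 ± 0.31 SE, limma adjusted p = 0.0606, which missed the threshold, and without T1 it was called (adjusted p = 0.0376, range 0.0376 to 0.254). Wnt11, a ligand of cell movement and of kidney branching, had 61.1, 71.9 and 149.6 scaled reads in T1, T2 and T3, against 103, 70.8 and 117 in U1, U2 and U3. T1 lay below and T3 above the untreated range, and T2 within it. Its log2 fold change of -0.13 ± 0.33 SE, limma adjusted p = 0.839 (95% interval -0.88 to 0.63), was not called, and its sign turned positive without T1, T2 or U3. Wnt11 was -0.51 without T3 (adjusted p = 0.203), and in the 4 libraries of like depth (T1, T2, U1 and U3) it was called lower, at -0.72 (limma adjusted p = 0.0436, range 0.0436 to 0.99).

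Lef1, the DNA-binding partner of beta-catenin, had 121, 67.5 and 234 scaled reads in T1, T2 and T3, against 42.9, 74.6 and 72.7 in U1, U2 and U3. T3 was more than 3 times T2, which itself lay between U1 and U3, so the groups overlapped. Lef1 averaged 141 ± 85.2 in treated and 63.4 ± 17.8 in untreated skin (SD, n = 3 each), a log2 fold change of 1.00 ± 0.41 SE, limma adjusted p = 0.133 (95% interval 0.07 to 1.94). It was called higher without T2 (adjusted p = 0.046) and with DESeq2 (adjusted p = 0.0286), in a range of 0.0286 to 0.337 over the alternatives, and the authors' deposited table gives it a log2 fold change of 1.11 with an adjusted p of 0.0274. Without T3 its log2 fold change was 0.55 (adjusted p = 0.301).

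Axin2, the feedback scaffold, had 449, 437 and 524 scaled reads in T1, T2 and T3, against 639.5, 419 and 549.9 in U1, U2 and U3. The 3 treated values lay within the range of the untreated ones, and U2 was the lowest of the 6. Axin2 averaged 470.0 ± 47.4 in treated and 536 ± 111 in untreated skin (SD, n = 3 each), a log2 fold change of -0.17 ± 0.15 SE, limma adjusted p = 0.472 (95% interval -0.51 to 0.17). In the 4 libraries of like depth Axin2 was called lower, with a log2 fold change of -0.42 and an adjusted p of 0.022 (range 0.022 to 0.904). Without U2 alone its log2 fold change was -0.34 (adjusted p = 0.109).

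**Figure D2:**
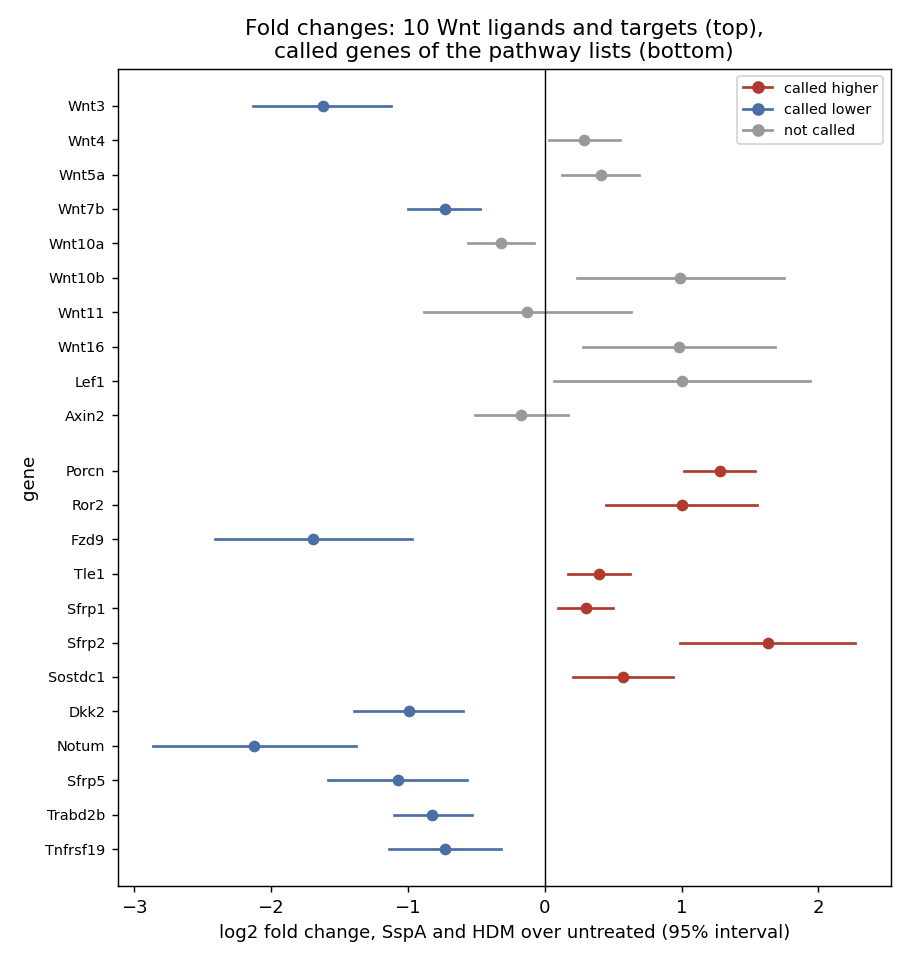
Log2 fold change of treated over untreated skin with its 95% interval for the 10 genes (upper block) and for the 12 called genes of the other pathway lists (lower block), coloured by call. Wnt3 at -1.62 and Wnt7b at -0.73 are the called members, and the intervals of Lef1 (0.07 to 1.94) and Wnt11 (-0.88 to 0.63) are wide.

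On a per-length scale, Wnt4 was the most abundant of the 10 in treated skin, at 242 ± 41.2 scaled reads per kilobase (SD, n = 3), and its lowest library was above the highest library of Wnt10a, next at 143 ± 8.35. Axin2 (111 ± 11.2) and Wnt7b (105 ± 14.1) followed. Wnt5a (83.5 ± 12.3), Wnt3 (53.4 ± 19.5), Wnt10b (46.5 ± 21.1), Wnt16 (41.2 ± 13.7), Lef1 (38.7 ± 23.4) and Wnt11 (31.3 ± 16) came after them, and from Axin2 downwards each gene overlapped its neighbour in that order. In untreated skin Wnt4 (197 ± 8.97), Wnt10a (178 ± 17.1), Wnt7b (174 ± 13.6) and Wnt3 (159 ± 17.2) led, followed by Axin2 (126 ± 26.1), and each of these 5 overlapped its neighbour. Wnt5a (62.4 ± 5.53) and Wnt11 (32.2 ± 7.89) were next, each apart from the gene before it. Wnt10b (21.5 ± 2.6), Wnt16 (20.2 ± 4.8) and Lef1 (17.4 ± 4.89) were lowest, with overlapping ranges. Wnt3 was thus the sixth of the 10 in treated and the fourth in untreated skin.

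The 8 ligands made up 80.7% to 84.3% of the summed per-kilobase level of all 17 Wnt genes with a row. That sum was 945, 809 and 976 scaled reads per kilobase in T1, T2 and T3, against 1024, 1024 and 1024 in U1, U2 and U3, so each treated library had less. Wnt3 held 5.04%, 4.63% and 7.7% of it in T1, T2 and T3, against 16.6%, 16.4% and 13.6% in U1, U2 and U3. Wnt4 held 30.4%, 28.7% and 21.2%, against 18.3%, 20% and 19.3% in the same libraries. The ratio of Wnt4 to Wnt3 per kilobase was 6.04, 6.19 and 2.76 in T1, T2 and T3, against 1.1, 1.22 and 1.42 in U1, U2 and U3. Shares of a sum are tied to each other, so a smaller share of Wnt3 enlarges the others.

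**Figure D3:**
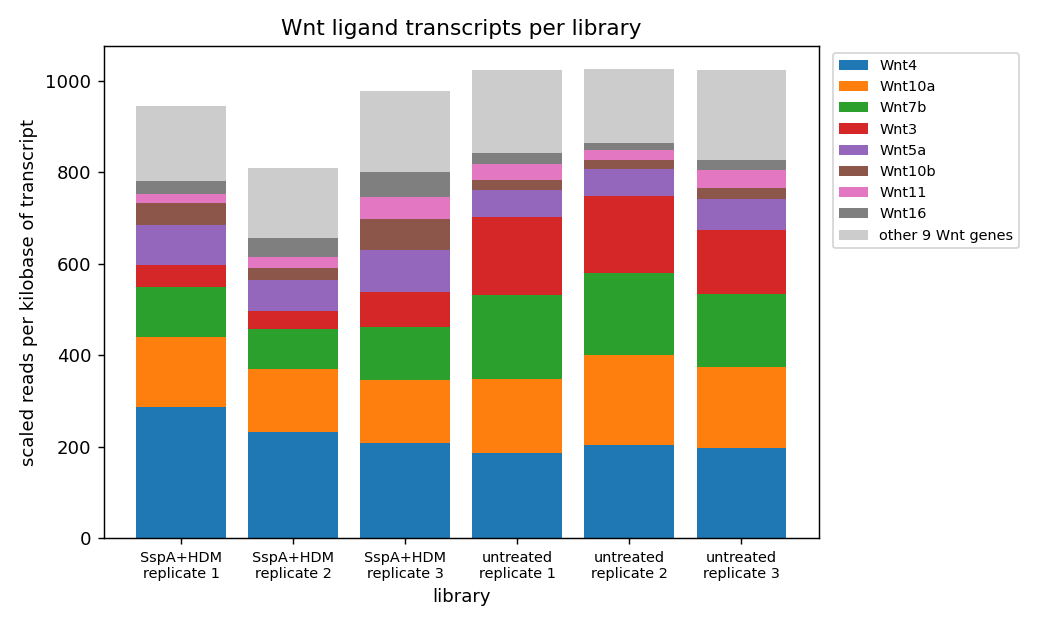
Scaled reads per kilobase of transcript for the 17 Wnt genes, stacked for each library, with the 8 named ligands in colour and the other 9 in light grey. The Wnt3 and Wnt7b segments are shorter in the 3 treated libraries on the left, and the whole column is lowest in T2 at 809.

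Genes of the growing hair follicle differed between the groups as well, and their values stand here beside those of the ligands. Of the hair matrix, shaft and inner root sheath list, 8 of 14 tested members were higher and 1 was lower (Gata3); genes absent from untreated skin pass the filter only through treated skin, so the count is a description. The 20 members with a row summed to 3797, 2104 and 6999 scaled reads in T1, T2 and T3, against 1830, 1726 and 1691 in U1, U2 and U3, and Krt72 and Krt81 had no read in the untreated group. T3 had the highest sum and T2 the lowest of the treated libraries. The same order was seen in 6 of the 10 genes (Wnt3, Wnt5a, Wnt7b, Wnt10b, Lef1 and Axin2), of which Wnt3 and Wnt7b were called lower. How many of all tested genes share that order was not counted. The inner root sheath keratin gene Krt71 had 346, 113 and 811 scaled reads in T1, T2 and T3, against 13.2, 15.4 and 11.4 in U1, U2 and U3. Shh, the signal of the hair matrix, had 88.2, 50.1 and 173 scaled reads in T1, T2 and T3, against 5.49, 5.15 and 5.68 in U1, U2 and U3. The dermal papilla list (9 markers) summed to 1129, 1113 and 1363 scaled reads in T1, T2 and T3, against 965, 1028 and 1149 in U1, U2 and U3, with 2 members higher and 1 lower. Of the other marker lists, 5 of 5 melanocyte, 2 of 5 dividing cell, 2 of 5 endothelial and 1 of 6 macrophage genes were higher. Called lower were 4 of 6 adipocyte, 1 of 6 skeletal muscle and 1 of 6 basal epidermal genes. For skeletal muscle all 6 log2 fold changes were negative, without overlap of the groups, where 15.6% of all tested genes were lower without overlap. Of all tested genes, 9.26% were called higher and 7.23% lower by limma. The part of hair follicle content in the values of the 10 genes was not tested. Nor was that of the time since hair removal, which is not given for untreated skin.

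Lef1 is also made by T cells. The T cell list (8 markers with a row) summed to 721, 753 and 750 scaled reads in T1, T2 and T3, against 525, 488 and 615 in U1, U2 and U3, with 4 of 8 members higher and none lower in limma. Their part in the values of Lef1 was not tested. By the same rule 9.26% of all tested genes were higher and 7.23% lower. Neutrophil markers (6) summed to 2737, 2358 and 1163 scaled reads in T1, T2 and T3, against 415, 364 and 542 in U1, U2 and U3, lowest among treated libraries in T3. Suprabasal epidermal markers (6) summed to 8320, 7361 and 7498 scaled reads in T1, T2 and T3, against 10994, 11582 and 10523 in U1, U2 and U3, and 2 of 6 were lower, namely Krt77 and Lor. Follicle stem cell and outer root sheath markers (7) summed to 3903, 3811 and 4259 scaled reads in T1, T2 and T3, against 4834, 5379 and 5081 in U1, U2 and U3, and 4 of 7 were lower (Cd34, Fgf18, Krt15 and Krt75). Their part in the fall of Wnt3 and Wnt7b was not tested.

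**Figure D4:**
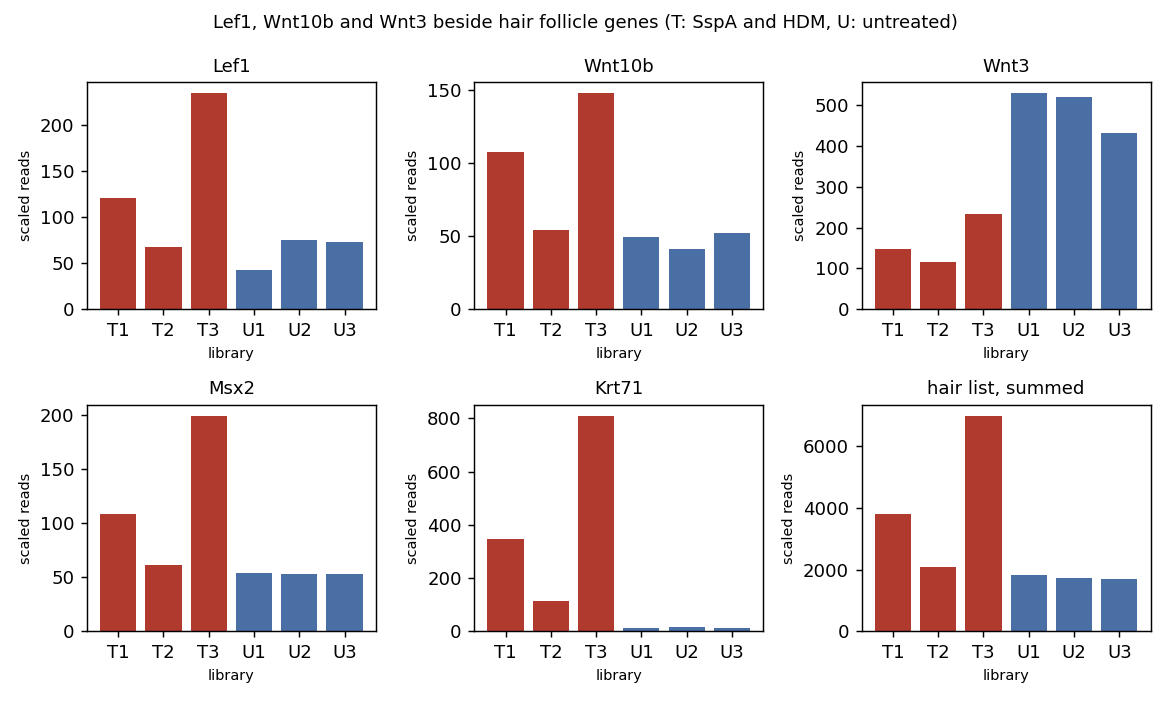
Scaled reads in each library (linear axes from 0) for Lef1, Wnt10b and Wnt3 and, below them, for the hair genes Msx2 and Krt71 and the summed hair list. T3 is the tallest treated bar in all 6 panels, and T2 the shortest. Msx2 is the gene nearest in pattern to Wnt10b, so a like order is built into that choice. Not every gene of the hair list has this order: Foxn1 had 280, 216 and 204 scaled reads in T1, T2 and T3.

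The genes with the most similar pattern over the 6 libraries were found from the root mean square difference of centred log2 values, where smaller is more alike. For Wnt3 they were Lce1m (0.0814 log2 units), Serpinb1c (0.135) and Paqr7 (0.145). Lce1m, a gene of the late cornified envelope family, had 174, 137 and 311 scaled reads in T1, T2 and T3, against 638, 705 and 531 in U1, U2 and U3. For Wnt7b they were Acss1 (0.0544), Phospho1 (0.0577) and Ano9 (0.0747). For Lef1 they were Galnt14 (0.194), Cyp27b1 (0.24) and Celf5 (0.243), at larger distances than those of Wnt7b, and for Axin2 they were Pigg (0.0384), Sipa1l3 (0.052) and Wdr5b (0.0552). For Wnt10b, named here after its values were seen, they were Msx2 (0.154), Susd4 (0.179) and Ly6g5b (0.221). Msx2, a transcription factor gene of the hair matrix, had 109, 61 and 199 scaled reads in T1, T2 and T3, against 53.8, 52.8 and 53.4 in U1, U2 and U3. It was not called (limma adjusted p = 0.0865). Both groups enter this measure, so genes that differ between them by a like amount score as alike.

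The other genes of the pathway came from 9 lists with 83 tested genes, of which 6 were higher and 6 lower (all tested genes 9.26% and 7.23%), with a median log2 fold change of 0.09. Those shares of all tested genes are also the ones to set beside the counts of each list below. Leaving out single libraries moved those counts, to 3 higher without T1, T2 or U1 and 2 without U2, and to 10 lower without T3 and 4 without U1. Among the other Wnt ligands, 0 of 7 tested were called (limma; 1 lower at an unadjusted p under 0.05, 0 by edgeR or DESeq2), and their median was -0.19. The unadjusted call was Wnt2, chosen after its values were seen, which had 5.65, 16.3 and 25.2 scaled reads in T1, T2 and T3, against 30.8, 37.3 and 40.9 in U1, U2 and U3. Wnt3a (-0.19, limma adjusted p = 0.75) and Wnt9a (-0.26, adjusted p = 0.313) had the highest mean scaled reads of them and were not called. Wnt6, which lies 6697 bases from Wnt10a on mm10, had a log2 fold change of -0.22 (limma adjusted p = 0.52). Wnt9b, 24354 bases from Wnt3, fell below the filter, with 29 reads in treated and 9 in untreated skin.

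Of the genes for ligand secretion, Porcn rose. It had 424, 538 and 486 scaled reads in T1, T2 and T3, against 184, 214 and 195 in U1, U2 and U3, so all treated libraries were above all untreated ones. Porcn averaged 483 ± 57 in treated and 198 ± 15.1 in untreated skin (SD, n = 3 each), a log2 fold change of 1.28 ± 0.12 SE, limma adjusted p = 0.000876, and was called under each of the 19 alternatives (adjusted p 9.3e-13 to 0.007). Wls, the carrier of finished ligands, was not called (0.08, limma adjusted p = 0.434, 95% interval -0.07 to 0.24). Of 16 receptors and co-receptors, 1 rose and 1 fell, where 9.26% of all tested genes were higher and 7.23% lower. Ror2, the receptor through which Wnt5a acts, had 119, 122 and 207 scaled reads in T1, T2 and T3, against 74.7, 59.2 and 82.9 in U1, U2 and U3. Its log2 fold change of 1.00 ± 0.24 SE, limma adjusted p = 0.0258, was past the threshold over the 6 libraries, but not without U1 (adjusted p = 0.069) or U2 (0.079), in the 4 like-depth libraries (0.0561) or when the spread had no trend (0.0544), in a range of 0.00452 to 0.079.

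Fzd9, a Frizzled receptor gene, fell. It had 26, 27.2 and 28.6 scaled reads in T1, T2 and T3, against 68.1, 154 and 69.3 in U1, U2 and U3. U2 held a higher level than the other untreated libraries, and the log2 fold change of -1.69 ± 0.32 SE, limma adjusted p = 0.011, was called under each of the 19 alternatives (adjusted p 4.81e-05 to 0.0381). The co-receptor genes Lrp5 (0.05, limma adjusted p = 0.691) and Lrp6 (0.13, adjusted p = 0.323) were not called. Of 8 tested genes for R-spondins, their Lgr receptors and the receptor ubiquitin ligases, 0 were called by limma (1 higher and 0 lower at an unadjusted p under 0.05, 0 by edgeR or DESeq2), with a median of 0.14. Lgr4 (0.13, limma adjusted p = 0.361) and the follicle stem cell gene Lgr5 (-0.25, adjusted p = 0.461, and 0.0485 without T3, range 0.0136 to 0.843) had the highest mean scaled reads.

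Extracellular and membrane inhibitors moved in both directions: 3 of 14 tested members were higher (Sfrp1, Sfrp2 and Sostdc1) and 4 lower (Dkk2, Notum, Sfrp5 and Trabd2b), with a median of -0.1. The higher count was 1 without T1, T2, U1 or U2 and 2 without T3, and the lower count was 3 without U1. With all 6 libraries the higher count was 1 by edgeR, by limma-voom and by limma with TMM scaling or size factors from DESeq2. It was 2 by DESeq2, and the lower count was 4 in each of these. Notum, an esterase that strips the lipid from Wnt proteins and is induced by the pathway, had 33.9, 24 and 58.8 scaled reads in T1, T2 and T3, against 126, 157 and 212 in U1, U2 and U3. The groups were far apart, and the log2 fold change of -2.12 ± 0.33 SE, limma adjusted p = 0.00547, was called under each of the 19 alternatives (1.15e-08 to 0.0246). Trabd2b, a membrane protease that cuts Wnt ligands, fell by 0.82 on the log2 scale (limma adjusted p = 0.00556), with 284, 302 and 374 scaled reads in T1, T2 and T3, against 509, 547 and 629 in U1, U2 and U3. Dkk2, a secreted partner of Lrp5 and Lrp6, had 124, 145 and 205 scaled reads in T1, T2 and T3, against 299, 315 and 311 in U1, U2 and U3 (log2 fold change of -0.99 ± 0.17 SE, limma adjusted p = 0.0086). Its untreated values were close together, and T3 was the highest treated one. Sfrp5 (log2 fold change -1.07, limma adjusted p = 0.015, and 0.0532 without U1, range 0.000614 to 0.0532), a secreted Frizzled-related protein, fell as well.

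Sfrp2, of the same family and made by fibroblasts, rose, with 379, 524 and 373 scaled reads in T1, T2 and T3, against 84.6, 202 and 144 in U1, U2 and U3. U1 was the lowest untreated library, and the log2 fold change of 1.63 ± 0.28 SE, limma adjusted p = 0.0081, was called under each of the 19 alternatives (1.42e-07 to 0.0349). Sostdc1, which binds BMPs and the Wnt co-receptor Lrp6 (log2 fold change 0.57, limma adjusted p = 0.0432), missed the threshold without T1 (0.114), T2 (0.118), U1 (0.0804) or U2 (0.056), in a range of 0.0198 to 0.118. Sfrp1 (log2 fold change 0.30, limma adjusted p = 0.0461) did so without T1 (0.106), T2 (0.128), T3 (0.066), U1 (0.111) or U2 (0.115), and with TMM scaling (0.0623), in a range of 0.0337 to 0.128. Of the 19 alternatives, Sostdc1 was called under 10 and Sfrp1 under 6. Sfrp1, Sfrp5 and Sostdc1 were named after their values were seen. Kremen1 (-0.15, limma adjusted p = 0.26) and Apcdd1 (-0.05, adjusted p = 0.793), with the highest mean scaled reads of the others, were not called. Dkk1, with 16 reads over the treated and 0 over the untreated libraries, stayed below the filter. Fibroblast markers (7), 0 of them called in either direction by limma (0 higher and 1 lower at an unadjusted p under 0.05), had the sums given above, and their part in the rise of Sfrp2 was not tested.

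**Figure D5:**
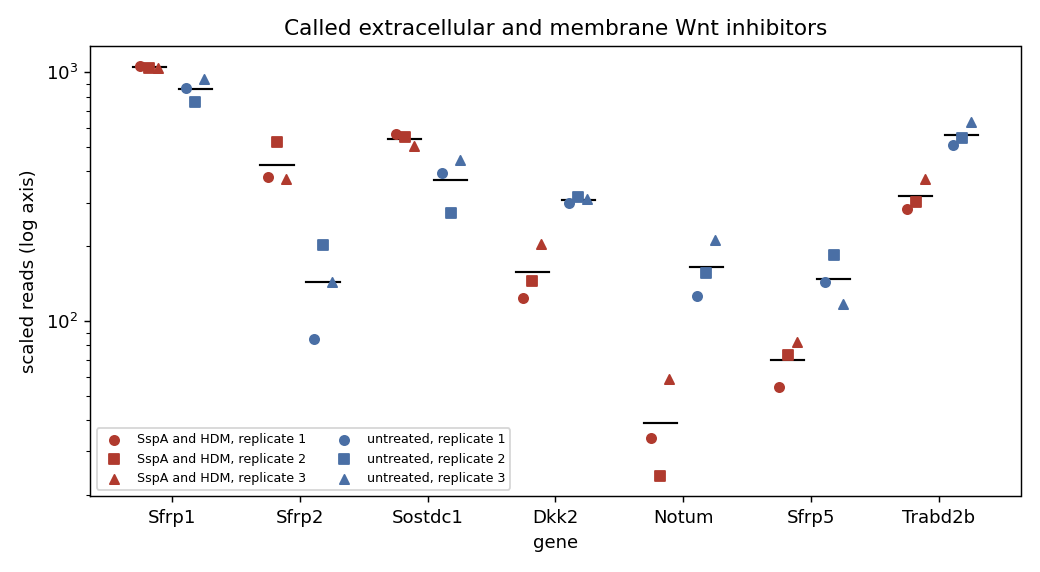
Scaled reads (log axis) in each library for the 7 called inhibitor genes, with treated libraries left of untreated ones and a black bar at the group mean. Sfrp2 is higher in the 3 treated libraries, Notum, Dkk2, Sfrp5 and Trabd2b are lower, and Sfrp1 differs little, at 0.30 on the log2 scale.

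Inside the cell, 0 of 9 genes of the beta-catenin machinery were called by limma (0 by edgeR or DESeq2, and 0 higher and 0 lower at an unadjusted p under 0.05), with a median log2 fold change of -0.01. Of all tested genes, 16.5% were called by limma in either direction. Ctnnb1, which encodes beta-catenin, had 2101, 2041 and 1799.8 scaled reads in T1, T2 and T3, against 1965, 2055 and 2051 in U1, U2 and U3, with a 95% interval of its log2 fold change of -0.21 to 0.14. Csnk1a1 (-0.01, limma adjusted p = 0.968), a kinase of the destruction complex, was not called either. Of 11 nuclear partners, 1 was higher, the co-repressor gene Tle1 (log2 fold change 0.40, limma adjusted p = 0.0306), and it missed the threshold without T1 (0.0811), T2 (0.0761), T3 (0.0541), U2 (0.0764) or U3 (0.0585) and with DESeq2 (0.0605), in a range of 0.03 to 0.0811. Tle3 (0.19, adjusted p = 0.0937 by limma) and Bcl9l (0.08, adjusted p = 0.547) were not called. Tcf7, a relative of Lef1 known from T cells, had 242, 222 and 262 scaled reads in T1, T2 and T3, against 192, 208 and 245 in U1, U2 and U3 (log2 fold change of 0.17 ± 0.13 SE, limma adjusted p = 0.403).

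Other targets of the pathway included 12 tested genes, of which 0 were higher by limma (2 at an unadjusted p under 0.05, 0 by edgeR or DESeq2) and 2 lower, Notum and Tnfrsf19. Of all tested genes, 9.26% were higher and 7.23% lower by limma. Tnfrsf19, also called Troy, a receptor of follicle cells, had 645, 502 and 912 scaled reads in T1, T2 and T3, against 1155, 1089.7 and 1070.3 in U1, U2 and U3. T3 was the highest treated library, and the log2 fold change of -0.73 ± 0.18 SE, limma adjusted p = 0.0275, was lost without T1 (0.0791), T2 (0.0628), U1 (0.0864), U2 (0.0717) or U3 (0.0558), in a range of 0.000388 to 0.0864. The cell cycle gene Ccnd1 (0.25, limma adjusted p = 0.0854) was not called, and the feedback genes Nkd1 (-0.11, adjusted p = 0.831 by limma) and Nkd2 (0.15, adjusted p = 0.757) had overlapping groups. Of 10 planar cell polarity genes, which serve a beta-catenin-independent branch, 0 were called by limma, edgeR or DESeq2 (0 at an unadjusted p under 0.05), with Celsr2 (0.21) and Scrib (0.00) having the highest mean scaled reads, and a median of 0.16.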

How the data were processed

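Per the submitters' processing notes, reads were handled with bcl2fastq 2.20.0.422, STAR and DESeq2 on build mm10. The libraries came from a stranded mRNA kit, per the labels. How reads were counted and filtered is not given in the sources used here. All 6 columns of the deposited table hold, per the file headers, 1 scaled signal for each gene and library. The authors' own comparison stands beside them as log2 fold changes with raw and adjusted p-values. The reads behind each value were recovered from the step that 1 read makes, which left 100% of values at most 0.1 from whole reads.

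The plan named limma on log2(value + 1) for such values. Genes passing edgeR's filterByExpr on recovered reads (minimum count 10, minimum total 15) were tested with limma 3.58.1 (R 4.3.3; the spread follows a trend with level). Alternatives used edgeR 4.0.16 and DESeq2 1.42.0 on recovered reads, limma-voom, other scalings, pseudocounts and filters, the replicate block, and fewer libraries. Reads estimated from filled positions, chosen after seeing the data, allow for counting each base of a transcript once: the highest count per base was 0.923 over all genes and 0.254 among the 10 genes. On simulated reads with 200 of 15534 genes changed, 97.2% of the 3-fold and 52.7% of the 1.5-fold changes were called. The changed genes averaged at least 30 reads. In the data a larger share of genes, 16.5%, was called, so these rates need not hold for the 10 genes.

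The members and lists were chosen with earlier results of these data known. Named by rule are the 10 members, up to 4 called and 2 abundant uncalled genes per list, and the 3 genes nearest in pattern to Lef1, Axin2 and called ligands. Given outside that rule are Wnt6, Wnt9b, Tcf7, Nkd1, Nkd2, Dkk1 and single marker genes such as Krt71 and Shh. So are the genes said to be named or chosen after their values were seen. Promoter windows are from RefSeq (GRCm38.p6), gene positions from the deposited table (mm10), and overlapping genes from GENCODE M21. A planned comparison of protein sequences was not made. Figures were drawn with matplotlib 3.10.9.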

Additional observations from a re-analysis of the deposited data

How the results depend on the processing

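Wnt3 and Wnt7b were called lower under each of the 19 alternatives and at adjusted p under 0.01. Leaving out each library in turn gave 0 to 3 members higher and 2 lower, 2 to 5 pathway genes higher and 4 to 10 lower, and 597 to 1389 of all genes higher and 518 to 1333 lower (1439 and 1123 with all 6). DESeq2 called 3 members higher, with 1247 of all genes higher. The 4 libraries of like depth gave 1 member higher and 4 lower (Wnt11, -0.72, and Axin2 added), and 3 pathway genes higher and 13 lower. Without a trend in the spread, 922 genes were higher and 640 lower, with 2 pathway genes higher. At adjusted p under 0.01, 362 genes were higher and 288 lower, with 2 and 3 pathway genes. The cause was not tested in any of these cases. The 5-letter core stood in 7 promoter windows, where the longer forms searched for, which contain it, stood in 1.

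Whether the replicate numbers pair the samples is not given in the sources used here. Deviations of same-numbered samples from their group means correlated at -0.085, -0.0545 and 0.0538. Those of differently numbered samples ranged from -0.0977 to 0.146. With 3 samples per group such values cannot exclude a pairing. With the replicate block 2 members were called higher (Wnt5a and Wnt10b), 2 lower, and 5 and 8 pathway genes.

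Signs of log2 fold changes near 0 turned for uncalled genes. Leaving out each library in turn gave -0.51 to 0.13 for Wnt11 (above 0 without T1, T2 or U3), -0.50 to 0.14 for Wnt3a (T3), -0.08 to 0.03 for Ctnnb1 (T3), -0.09 to 0.08 for Csnk1a1 (T3 and U2), -0.01 to 0.09 for Lrp5 (below 0 without U2), -0.19 to 0.02 for Apcdd1 (U1 and U3) and -0.04 to 0.04 for Scrib (T2 and U1). The 4 libraries of like depth gave -0.04 for Lrp5, 0.04 for Ctnnb1, 0.12 for Csnk1a1 and -0.02 for Celsr2. Reads estimated from filled positions gave 0.04 for Ctnnb1, 0.04 for Csnk1a1 and 0.01 for Scrib. Counting error is widest for the members with the fewest reads, Wnt16 among them (19 to 106 reads per library).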
